A study of Homo sapiens with 95 samples.

Results

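Desmosomes are the junctions that rivet epithelial cells to each other, and 10 of their genes were followed through 95 SFL (sparse full length) RNA-seq profiles of AALE cells, an immortalized line of human lung epithelial cells. The 10 genes were taken by symbol (DSG2, DSG3, DSC2, DSC3, DSP, JUP, PKP1, PKP3, PERP and PPL) from the 27978 gene symbols listed in the count files. All 10 were listed, and all 10 passed the filter on low counts in every comparison, a mean above 1 count per sample. Each cell line carried 1 of 8 genotypic perturbations. FAT1 and CDKN2A had been knocked out by CRISPR, and their control, called GFP, had received the Cas9 and EGFP plasmid without a guide. NRF2, FGFR1, NRG1 and PIK3CA were overexpressed, and their control, called HcRed, carried the vector. Each line received cigarette smoke condensate (CSC, 24 μg/ml), benzo(a)pyrene (BaP, 173 μM), the tobacco nitrosamine NNK (490 μM) or the solvent DMSO. The 32 combinations had 3 samples each, except that CSC-treated FGFR1 had 2. Each perturbation was present as 1 line, and whether a line was a clone or a pool is not given in the sources used here. Differences between lines therefore describe these lines, and p-values measure the spread between their samples.

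In a desmosome, desmogleins and desmocollins are the cadherins that span the membrane and hold those of the neighbouring cell. Inside the cell, plakoglobin (JUP) and plakophilins bind the cadherin tails, and desmoplakin (DSP) ties this plaque to keratin filaments. PERP is a small membrane protein of the junction and periplakin (PPL) a linker related to desmoplakin. In stratified and basal airway epithelium, DSG3, DSC3 and PKP1 are typical of keratinocyte-like basal cells, whereas DSG2, DSC2 and DSP are used by nearly all epithelia.

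The samples held between 287446 and 2116383 counted reads, a 7.36-fold range with a median of 934235. At these depths 3 counts correspond to between 1.42 and 10.4 CPM, the reads of a gene scaled to the library total. The lowest count of any of the 10 genes in any sample was 19, for DSC2. The epithelial label was borne out by 6 epithelial markers, whose summed level lay between 3377 and 10896 CPM. Endothelial and immune markers summed to at most 6.26 and 37.6 CPM, and CD3E was at 0 in all samples. The level of each of the 6 targeted genes did not overlap between its line and the control line. For example, FAT1 was at most 127 CPM in the knockout and at least 262 CPM in GFP, and CDKN2A was at most 69.1 against at least 77.3 CPM.

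On GRCh37 (GENCODE models, the build of the deposited counts), the 4 cadherin genes form a cluster on chromosome 18, with DSC3 at chr18:28569331-28622781, DSC2 at chr18:28638806-28682485, DSG3 at chr18:29027704-29058665 and DSG2 at chr18:29078140-29128971. DSP lies at chr6:7541571-7586947, PERP at chr6:138409642-138428556, JUP at chr17:39910856-39943183, PKP1 at chr1:201252580-201302121, PKP3 at chr11:392614-404908 and PPL at chr16:4932508-5010742. The antisense gene DSG2-AS1 shares exon sequence with DSG2, and since the strand setting of the counting is not given in the sources used here, their reads may not be separable. DSG2-AS1 had 167 counts over all samples.

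Promoter sequence was found for 8 of the 10 genes in the RefSeq table (GRCh38.p14), PKP3 and PPL being the others. The 250 bases before the start of DSP, DSG3 and DSC3 are shown because, of the 7 genes called lower in DMSO in each of the CDKN2A, PIK3CA and NRG1 lines, these 3 had the largest falls in CDKN2A. Capitals mark matches, on either strand, to the E-box CACCTG in DSP and to a single 10-base p53 family motif in DSG3 and DSC3, where a full response element is a pair of such motifs. The AP-1 motif TGANTCA and the grainyhead motif AACCGGTT had no match in these 3 windows, and no matches overlapped. The windows are chr6:7541421-7541670 on the plus strand for DSP, chr18:31447491-31447740 on the plus strand for DSG3 and chr18:31042743-31042992 on the minus strand for DSC3.
DSP: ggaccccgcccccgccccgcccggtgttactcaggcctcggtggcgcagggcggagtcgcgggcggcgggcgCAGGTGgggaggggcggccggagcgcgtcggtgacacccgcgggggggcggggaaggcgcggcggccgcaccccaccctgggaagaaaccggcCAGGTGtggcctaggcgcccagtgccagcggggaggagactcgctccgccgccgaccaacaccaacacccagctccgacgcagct
DSG3: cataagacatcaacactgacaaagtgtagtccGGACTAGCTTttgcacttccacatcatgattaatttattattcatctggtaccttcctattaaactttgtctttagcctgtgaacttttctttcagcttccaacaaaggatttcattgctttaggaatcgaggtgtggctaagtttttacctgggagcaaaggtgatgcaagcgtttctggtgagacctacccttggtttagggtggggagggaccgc
DSC3: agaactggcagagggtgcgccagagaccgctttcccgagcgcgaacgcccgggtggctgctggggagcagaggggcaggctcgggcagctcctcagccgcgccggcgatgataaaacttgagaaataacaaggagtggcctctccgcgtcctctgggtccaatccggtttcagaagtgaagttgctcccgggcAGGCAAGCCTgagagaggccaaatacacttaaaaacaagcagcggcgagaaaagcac
Of 35116 promoter windows of the same length, 17.5% held the E-box, 5.57% the single p53 family motif, 6.57% the AP-1 motif and 0.117% the grainyhead motif. DSG2 and 1 of 2 windows each of DSC2 and JUP also held the E-box, PERP held the AP-1 motif, and PKP1 held none of the 4. A match is only a string of letters, and no binding was measured.

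All 10 genes were expressed in both control lines. Per kilobase of transcript, desmoplakin had the highest level in DMSO-treated GFP and HcRed, at 9.02 ± 0.11 and 8.67 ± 0.03 log2 CPM per kb (SD, n = 3). PERP was second at 7.57 ± 0.09 and 7.29 ± 0.10, followed by DSG2 at 6.95 ± 0.07 in both lines, while JUP, at 6.86 ± 0.08 and 6.83 ± 0.08, lay within the spread of DSG2. PKP3 and DSC2 were the lowest, with DSC2 at 3.25 ± 0.19 and 3.39 ± 0.04 log2 CPM per kb. The transcript model used for DSC2 has 12331 bases, and a shorter model in the counting would raise its place in this order. All further levels are log2 CPM of a single gene and are compared between samples only.

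**Figure D1:**
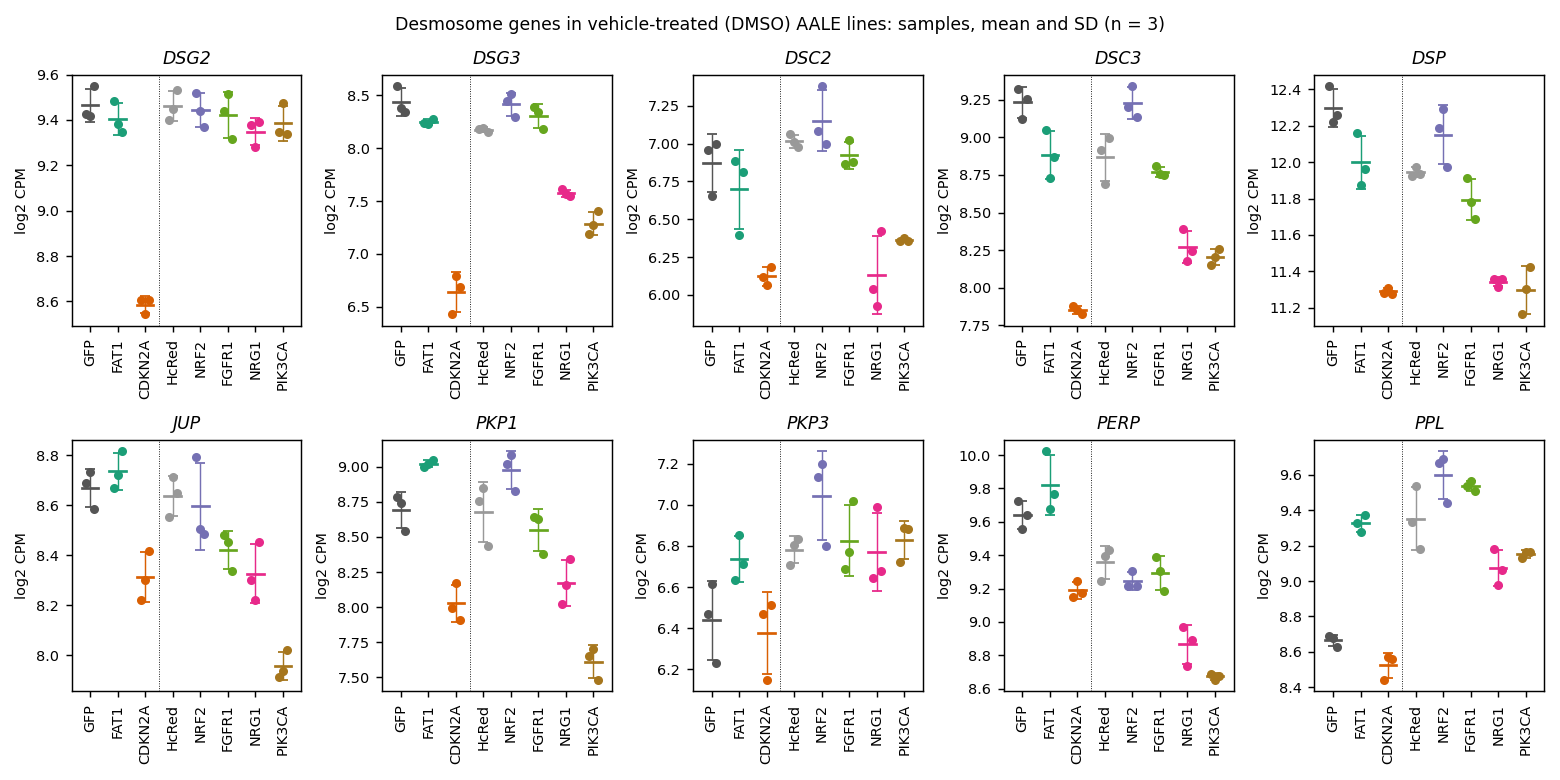
Level of each of the 10 genes (log2 CPM, own axis per gene) in the 8 DMSO-treated lines; points are samples, lines and bars the mean and SD (n = 3), and the dotted line separates the 3 lines on the left, with control GFP, from the 5 on the right, with control HcRed. DSG3 in CDKN2A, at 6.43 to 6.79, lies below all other lines, and 8 of the 10 genes are lower in PIK3CA than in HcRed without overlap.

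Loss of CDKN2A, which encodes inhibitors of the cell cycle, went with lower levels of most of the 10 desmosome genes. In DMSO, 8 of the 10 desmosome genes were lower than in GFP and none was higher, where 18.3% of all 14540 genes tested were called lower. Among the 3404 genes with at least the mean count of the lowest desmosome gene, 36.2% were called lower. The median log2 fold change of the 10 genes was -0.73, against -0.08 over those 3404 genes. In bulk RNA, fewer cells with strong junctions and less RNA per cell cannot be told apart.

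The falls were largest for DSG3 and DSC3, followed by DSP. DSG3 was 6.43, 6.79 and 6.68 log2 CPM in the 3 CDKN2A samples and 8.59, 8.38 and 8.35 in GFP. Every knockout sample was thus far below every control sample, and DSG3 fell by 1.83 on the log2 scale (SE 0.10, limma adjusted p = 4.3e-25), to 28.0% of GFP. DSC3 was 7.88, 7.85 and 7.82 against 9.32, 9.12 and 9.25, a log2 fold change of -1.40 ± 0.07 (SE, limma adjusted p = 4.9e-27). DSG2, the cadherin found in nearly all epithelia, was 8.61, 8.54 and 8.61 against 9.42, 9.42 and 9.55 log2 CPM. DSG2 changed by -0.90 ± 0.06 and was called in none of the other 5 lines in DMSO. DSC2 changed by -0.78 ± 0.13.

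The plaque genes fell less evenly. Desmoplakin was 11.28, 11.31 and 11.28 log2 CPM in CDKN2A and 12.42, 12.22 and 12.26 in GFP, a change of -1.02 that leaves 49.3% of the control level. The standard error of the weighted fit for DSP was 0.03, and 0.06 when taken from the 6 samples themselves. Over the 6 DMSO comparisons of lines, that second error was a median of 2.30 times the first for DSP. For the other 9 genes it was between 0.769 and 1.68 times, with PKP1 at 1.68 and PPL at 1.61. The fitted intervals of DSP, and less so those of PKP1 and PPL, are thus narrower than the spread of their samples gives. PKP1 changed by -0.68 ± 0.08, PERP by -0.47 ± 0.05 and JUP by -0.37 ± 0.07. PPL had no overlap between the groups but, at -0.16 ± 0.07, did not pass the test (adjusted p = 0.064). PKP3 was 6.47, 6.15 and 6.51 against 6.47, 6.61 and 6.23 log2 CPM, so its samples overlapped (-0.05 ± 0.14, adjusted p = 0.81). In all, 9 genes had no overlap on the low side, as did 22% of all genes.

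Over the 4 treatments together, with 12 samples against 12 and treatment as a covariate, all 10 genes were lower in CDKN2A, where 28.3% of all genes were called lower. DSG3 ran from 5.65 to 6.86 with a median of 6.59 log2 CPM in CDKN2A, and from 7.77 to 8.59 with a median of 8.01 in GFP. It fell by 1.58 on the log2 scale (SE 0.07), DSC3 by 1.23, DSP by 1.05, DSC2 by 1.0 and DSG2 by 0.90. These 5 genes and PKP1 did not overlap between the 12 and 12 samples, where 3.97% of all genes did not overlap on the low side. PKP3 and PPL now passed the test, with -0.33 ± 0.08 and -0.27 ± 0.05. The epithelial markers summed to a median of 4534 CPM in CDKN2A (3377 to 5347) and 5447 in GFP (5009 to 6493). Of the 6, 4 were called lower and 2 higher, where 28.3% and 29.4% of all genes were called so. The 7 mesenchymal markers summed to 81.9 (70.1 to 105) and 66.1 (36.3 to 94.4). Of 4 tested, 2 were called higher, CDH2 and COL1A1, and 1 lower, VIM, which fell by 0.74 on the log2 scale. Their part in the result was not tested.

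PIK3CA encodes the catalytic subunit of the lipid kinase PI3K. Its overexpression also went with lower desmosome genes, but here PKP1 and not DSG3 had the largest of the 10 differences. In DMSO 7 of the 10 genes were lower than in HcRed and none higher, where 3.81% of all 14278 genes and 7.22% of those with at least the mean count of the lowest desmosome gene were called lower. The median log2 fold change was -0.67 over the 10 genes and 0.03 over those well-counted genes.

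Plakophilin 1, which stabilizes desmosomes of stratified epithelia, was 7.65, 7.70 and 7.48 log2 CPM in PIK3CA and 8.75, 8.84 and 8.44 in HcRed. All PIK3CA samples were below all HcRed samples, and PKP1 was at 48.2% of the control (log2 fold change -1.05 ± 0.09, limma adjusted p = 5.8e-15). DSG3 was 7.18, 7.27 and 7.41 against 8.18, 8.19 and 8.15, a change of -0.90 ± 0.09. JUP was 7.91, 7.94 and 8.02 against 8.55, 8.71 and 8.65, the lowest plakoglobin levels of the 8 lines in DMSO. JUP, PERP and DSC3 each changed by -0.68, with SE 0.08, 0.07 and 0.08, DSC2 by -0.67 ± 0.12 and DSP by -0.64 ± 0.03. Taken from the samples, the error was 0.08 for DSP and 0.14 for PKP1.

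DSG2 was the exception among the cadherins, at 9.35, 9.47 and 9.34 log2 CPM in PIK3CA and 9.40, 9.45 and 9.53 in HcRed. The groups overlapped (-0.07 ± 0.06, adjusted p = 0.59, 95% interval -0.18 to 0.05). PKP3, at 0.06 ± 0.12, and PPL, at -0.18 ± 0.06 (adjusted p = 0.068), also missed the threshold. Over the 4 treatments 8 of the 10 genes were lower, PPL being the addition at -0.19 ± 0.04, where 13.8% of all genes were called lower. PKP1, with 7.48 to 8.01 in PIK3CA and 8.44 to 9.03 in HcRed, DSG3 and PERP did not overlap between the 12 and 12 samples, where 0.695% of all genes did not overlap on the low side. In DMSO 8 genes did not overlap, against 10.9% of all genes. The mesenchymal markers summed to a median of 200 CPM in PIK3CA (176 to 235) and 87.1 in HcRed (80.8 to 121), with VIM higher by 1.83 on the log2 scale. Of 5 tested over all treatments, 3 were called higher and 1 lower, where 14% and 13.8% of all genes were called so. The epithelial markers summed to 4395 (4048 to 5023) and 6936 (6204 to 8636), with 5 of 6 called lower and 1 higher. Their part in the result was not tested.

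NRG1, the ligand of the ERBB receptors, changed few genes when overexpressed, but most of the desmosome genes were among them. In DMSO 8 of the 10 genes were lower and none higher, where 0.946% of all 14053 genes and 2.29% of those with at least the mean count of the lowest desmosome gene were called lower. DSC2 was 6.04, 5.93 and 6.42 log2 CPM in NRG1 and 7.06, 7.01 and 6.98 in HcRed, which did not overlap, and stood at 53.1% of the control (-0.91 ± 0.14, limma adjusted p = 1.7e-07). DSP was 11.36, 11.31 and 11.36 against 11.93, 11.98 and 11.93, a change of -0.59 ± 0.03. DSG3 was 7.61, 7.57 and 7.55 against 8.18, 8.19 and 8.15 log2 CPM. DSG3 and DSC3 each changed by -0.60, PKP1 by -0.51 and PERP by -0.47.

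JUP (-0.30 ± 0.08, adjusted p = 0.021) and PPL (-0.25 ± 0.07, adjusted p = 0.024) were called too, but with less margin. Without HcRed replicate 2, HcRed replicate 3, NRG1 replicate 1 or NRG1 replicate 2 the call for JUP was lost, and without HcRed replicate 1, HcRed replicate 2 or NRG1 replicate 2 that for PPL. DSG2 (-0.11 ± 0.06, adjusted p = 0.51) and PKP3 (-0.03 ± 0.13, adjusted p = 0.97) did not pass. Over the 4 treatments 9 genes were lower, all but PKP3, where 4.91% of all genes were called lower. In DMSO 9 genes did not overlap, against 8.2% of all genes, whereas all 10 overlapped over the 12 and 12 samples of all treatments, where 0.155% of all genes did not. DSG2 was called at -0.13 ± 0.04 (adjusted p = 0.026), but not in edgeR or without replicate 2 of both lines, where it was -0.08. Mesenchymal markers summed to a median of 159 CPM in NRG1 (135 to 200) and epithelial markers to 4473 (3910 to 5038), and VIM was higher by 1.39 on the log2 scale. Their part in the result was not tested.

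**Figure D2:**
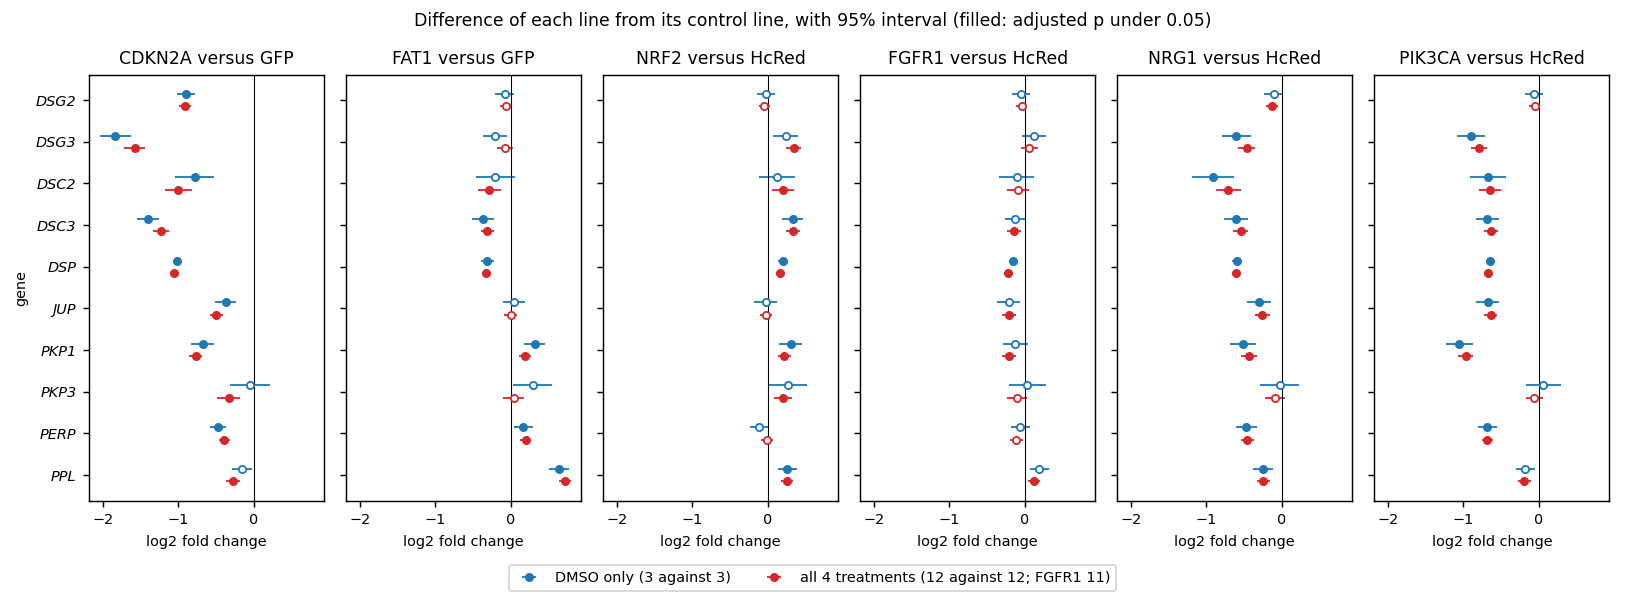
Log2 fold change of the 10 genes in each line against its control line, in DMSO only and over all 4 treatments. Bars are 95% intervals taken from the SE of the limma fit by the normal distribution, and filled points passed an adjusted p of 0.05. In DMSO the bars of DSP, and less so those of PKP1 and PPL, are narrower than the spread of the samples gives, by the median over the comparisons. All 10 points over all treatments lie below 0 in CDKN2A, where DSG3 is lowest at -1.58, whereas PPL is at 0.72 in FAT1 and DSG2 stays near 0 outside CDKN2A.

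FAT1 is itself a giant cadherin, and in its knockout desmosome genes were called in both directions. In DMSO 3 of the 10 genes were higher and 2 lower than in GFP, where 12% and 14.3% of all genes were called higher and lower. Among genes with at least the mean count of the lowest desmosome gene, 19.2% were higher and 28.1% lower, so 5 of 10 called is near the share of 47.3% called among those genes. PPL was 9.33, 9.27 and 9.37 log2 CPM in FAT1 and 8.69, 8.68 and 8.63 in GFP, 156% of the control (log2 fold change 0.64 ± 0.07, limma adjusted p = 5.0e-10). PKP1 was 9.0, 9.02 and 9.05 against 8.78, 8.74 and 8.54, a rise of 0.32 ± 0.07, and PERP rose by 0.17 ± 0.07. The call for PERP was lost with edgeR and DESeq2 and without FAT1 replicate 1 (0.06), GFP replicate 2 (0.13) or GFP replicate 3 (0.18). DSC3 (-0.36 ± 0.07) and DSP (-0.31 ± 0.04, with an error of 0.10 from the samples) were lower.

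Over the 4 treatments, 3 genes were higher (PPL, PERP and PKP1) and 3 lower (DSP, DSC3 and DSC2), where 25.0% and 23.9% of all genes, and 33% and 35.6% of the well-counted ones, were called so. PPL ran from 9.22 to 9.89 in FAT1 and from 8.55 to 9.03 in GFP. It was the only 1 of the 10 genes free of overlap between the 12 and 12 samples, where 1.53% of all genes were so on the high side. The level of PPL in the FAT1 line was near that of HcRed (9.17 to 9.84), and the control lines themselves differed. GFP was lower than HcRed in PPL by 0.69 on the log2 scale (SE 0.04) and higher in DSP by 0.37, and 8 of the 10 genes differed between the control lines, where 45.0% of all genes did. Among well-counted genes 66.5% differed. Lines of the 2 sets are therefore compared only with their own control. The epithelial markers summed to a median of 4339 CPM in FAT1 (3513 to 5258) and 5447 in GFP. Of the 6, 4 were called lower, KRT14, KRT17 and KRT5 among them, and 1 higher. The mesenchymal markers summed to 84.3 and 66.1, and of 4 tested 2 were called higher, CDH2 among them, and 1 lower. Their part in the result was not tested.

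NRF2 (the NFE2L2 gene), the transcription factor of the antioxidant response, was the only overexpressed gene whose line had desmosome genes called higher in DMSO. There, 4 of the 10 were higher and none lower, where 3.26% of all genes and 8.79% of those with at least the mean count of the lowest desmosome gene were called higher. DSC3 was 9.20, 9.34 and 9.13 log2 CPM in NRF2 and 8.92, 8.69 and 8.99 in HcRed, without overlap (0.33 ± 0.07, adjusted p = 0.00061). DSP rose by 0.21, PKP1 by 0.31 and PPL by 0.26, but their samples overlapped those of HcRed. Only DSC3 and the uncalled DSG3 (limma adjusted p = 0.067) were free of overlap on the high side, as were 11.3% of all genes. The errors of DSP, PKP1 and PPL were 0.03, 0.08 and 0.07 in the fit, but 0.09, 0.15 and 0.13 from the samples. Without HcRed replicate 3, NRF2 replicate 1 or NRF2 replicate 2, the calls for PKP1 and PPL were lost and 2 remained, and DESeq2 called only 1. Over the 4 treatments 7 were higher, where 10.4% of all genes were called higher, with DSG3 at 0.34 ± 0.05 and DSC3 at 0.33 ± 0.05. The calls for DSC2 (0.20 ± 0.08) and PKP3 (0.21 ± 0.06) were lost in leave-one-out fits. DSG2, JUP and PERP were the others, between -0.05 and -0.01. The epithelial markers summed to a median of 8023 CPM in NRF2 (6285 to 10896) and 6936 in HcRed. Of the 6, 3 were called higher and 1, CDH1, lower, where 10.4% and 11.2% of all genes were called so. The mesenchymal markers summed to 68.7 (46.4 to 81.8) and 87.1 (80.8 to 121). Of 5 tested, 2 were called lower, VIM among them, and none higher. Their part in the result was not tested.

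FGFR1, a receptor tyrosine kinase, had the fewest desmosome genes called of the 6 lines in DMSO. There DSP alone was called lower, at -0.15 ± 0.03 (adjusted p = 0.0025), where 0.774% of all genes were called lower. DSP was 11.91, 11.78 and 11.69 log2 CPM in FGFR1 and 11.93, 11.98 and 11.93 in HcRed, and from these samples the error of the difference is 0.07. edgeR (adjusted p = 0.12) and DESeq2 (adjusted p = 0.42) did not call it, nor did limma without FGFR1 replicate 3 (-0.09). Over the 4 treatments, with 11 against 12 samples, 4 genes were lower (DSP, PKP1, JUP and DSC3) and PPL was higher, where 6.23% and 7.25% of all genes were called so. Their log2 fold changes lay between -0.21 and 0.13, and without replicate 2 of both lines 3 calls were left. The mesenchymal markers summed to a median of 147 CPM in FGFR1 (97.4 to 167), and VIM was higher by 1.10.

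Of the 60 differences of a gene between a line and its control, 44 had the same direction in all 4 treatments and 16 did not, among them DSG3 in FAT1 (-0.31 to 0.11) and in FGFR1 (-0.20 to 0.36). In each of the 4 treatments DSP, DSG3, DSC2, DSC3, PKP1, JUP and PERP were lower in CDKN2A than in GFP, and lower in PIK3CA and NRG1 than in HcRed. DSG2 was lower in CDKN2A in all 4, by 0.81 to 1.05 on the log2 scale. PPL was higher in FAT1 than in GFP in all 4, by 0.66 to 0.82. The line accounted for the largest share of the sum of squares of log2 CPM in 9 of the 10 genes, from 54.2% for JUP to 85.0% for PERP. The treatment accounted for 6.70% (PERP) to 40.4% (PKP3), and PKP3 was the 1 gene in which it exceeded the line, which had 33.7%. Line by treatment combinations added 1.45% to 9.52%.

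Whether a treatment acted differently in different lines was tested with an interaction F test in limma. None of the 10 genes passed it for CSC, BaP or NNK, nor in edgeR, DESeq2 or the other settings tried. The lowest adjusted p was 0.081, for PPL under CSC, and at an unadjusted p under 0.05 there were 3, 2 and 2 of the 10 genes. Over all genes 138, 53 and 65 passed in limma, 0.952%, 0.368% and 0.452% of those tested.

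**Figure D3:**
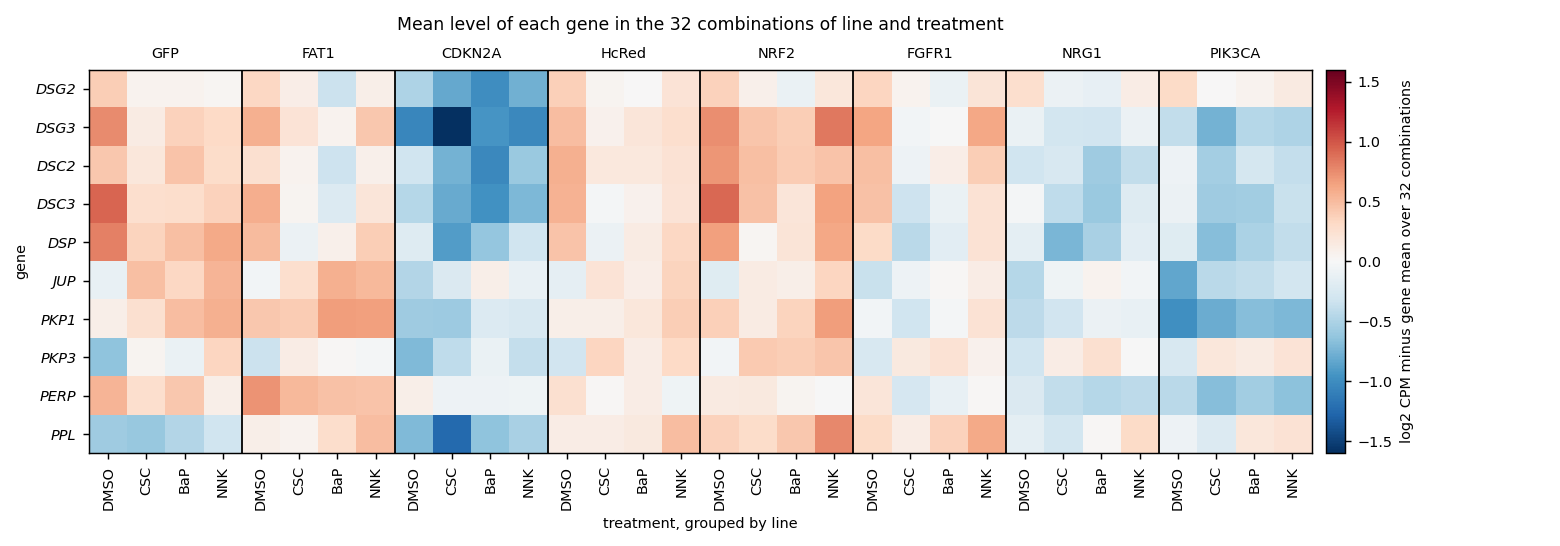
Mean log2 CPM of each gene in the 32 combinations of line and treatment, minus its mean over the combinations (n = 3 samples each, 2 for CSC-treated FGFR1). CDKN2A is low in the cadherin genes and DSP under every treatment, PIK3CA is low in PKP1, and PKP3 is lowest in DMSO in all 8 lines.

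CSC, BaP and NNK were each compared with DMSO over all lines, with line as a covariate, over 47 or 48 samples. CSC lowered 7 of the 10 genes and raised 2, BaP lowered 6 and raised 4, and NNK lowered 6 and raised 4. So many genes were called in these comparisons that the counts say little about desmosomes. Lower calls made up 28.4%, 25.1% and 25.8% of all genes tested under CSC, BaP and NNK, and 55.5%, 54.9% and 51.4% of those with at least the mean count of the lowest desmosome gene. Higher calls made up 27.2%, 26.4% and 25.9% of all genes.

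Under CSC, the 4 cadherin genes, DSP, PERP and PPL were lower and PKP3 and JUP higher. DSP ran from 11.16 to 12.42 with a median of 11.89 log2 CPM in the 24 DMSO samples and from 10.44 to 11.87 with a median of 11.29 in the 23 CSC samples, which overlap because the lines differ. Within each of the 8 lines the mean of DSP was lower with CSC, by 0.45 to 0.73 on the log2 scale, and over lines it fell by 0.58 (SE 0.02, limma adjusted p = 6.1e-42). DSC3 fell by 0.56, DSG3 by 0.46, DSG2 by 0.33 and DSC2 by 0.32. PKP3 rose by 0.48 ± 0.04 and JUP by 0.37 ± 0.03, and both were higher in 8 of 8 lines. The epithelial markers summed to a median of 4408 CPM with CSC and 5115 with DMSO. Of the 6, 4 were called lower and 1 higher, where 55.5% and 24.4% of well-counted genes were called so. The immune markers summed to 23.6 and 11.5, with CD68 higher by 1.0 on the log2 scale. Their part in the result was not tested.

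BaP gave a like order, led by DSC3 (-0.60 ± 0.04), DSG2 (-0.40 ± 0.03) and DSP (-0.35 ± 0.02), with PKP3 at 0.44 ± 0.05 and JUP at 0.42 ± 0.03. NNK lowered the cadherin genes less, with DSC3 at -0.31 ± 0.03 and DSG3 at -0.10 ± 0.04, and DSP by 0.11, while JUP rose by 0.50 ± 0.03. DSC3 was lower and JUP and PKP3 were higher in 8 of 8 lines with each of the 3 agents. The 3 comparisons share the DMSO samples.

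These directions went with the GC content of the transcripts. The 6 genes with a GC content between 39.0% and 47.7% (DSC2, DSC3, PERP, DSG2, DSG3 and DSP) were lower under all 3 agents, and JUP and PKP3, with 61.5% and 66.7%, were higher. PKP1 and PPL, with 56.3% and 59.5%, were between, at -0.02 and -0.13 under CSC and 0.31 and 0.35 under NNK. Over all genes with at least the mean count of the lowest desmosome gene, the median log2 fold change under CSC went from -0.26 for 1100 genes with a GC content up to 42% to 0.41 for 181 genes above 60%. Under BaP it went from -0.24 to 0.38 and under NNK from -0.24 to 0.44. After each sample was corrected for its trend with GC content and length, none of the 10 genes was higher under any agent. After it 7 were lower under CSC, 6 under BaP and 2 under NNK, and these were not all the genes called lower before. Over all genes with a known GC content, 4496 of 13579, 3210 of 13489 and 2040 of 13487 were then called in either direction. Under CSC, DSC2 and PERP lost their calls while PKP1 (from -0.02 to -0.26) and PKP3 became lower, and under BaP, DSC2 and PERP lost theirs while PKP3 and PPL became lower. The rises of PKP3 turned to -0.11 under CSC, -0.14 under BaP and -0.12 under NNK, and JUP came to -0.04, -0.01 and 0.07. Under NNK, the calls for DSG2, DSG3, DSC2 and PERP were lost.

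DSP and DSC3 were lower under all 3 agents both with and without the correction. DSP was -0.57 ± 0.02 under CSC, -0.28 ± 0.02 under BaP and -0.11 ± 0.02 under NNK after it, and DSC3 -0.30 ± 0.03, -0.36 ± 0.03 and -0.09 ± 0.03. PPL became lower by 0.47 under CSC and by 0.22 under BaP, where it had been at -0.13 and 0.11. The part of GC content in the differences was not tested otherwise. In the NRG1 and PIK3CA lines in DMSO the correction moved the differences less, but not so in CDKN2A and FAT1. The trend with GC content over well-counted genes went from -0.02 to 0.05 in NRG1 in DMSO. In PIK3CA it went from 0.01 to 0.08. After the correction 8 and 7 genes were again lower, where 0.946% and 3.81% of all genes were called lower before it. In CDKN2A, with a trend from -0.18 to 0.21, all 10 genes were lower in DMSO after it, with DSG3 at -1.77 ± 0.10. There 18.3% of all genes were called lower before it. PKP3 went from -0.05 to -0.47 and JUP from -0.37 to -0.68. In NRG1, PIK3CA and CDKN2A the number of all genes called, in either direction, stayed within 1.5 times that before the correction. In FAT1 over all treatments PPL remained higher at 0.61 ± 0.04, while JUP and PKP3 went from 0.00 and 0.04 to -0.19 and -0.28. DSC3 went from -0.31 to -0.12, and DSC2 lost its call, from -0.28 to -0.08. In DMSO DSC3 lost its call in FAT1, from -0.36 to -0.12, and PKP3 went from 0.29 to -0.10, uncalled in both. In NRF2 the calls for PKP1 (0.21) and PPL (0.12) in DMSO and for PKP3 (0.05) over all treatments were lost. DSG3 in NRF2 in DMSO gained a call, going from 0.24 to 0.30, and PERP in FAT1 in DMSO went from 0.17 to 0.37.

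**Figure D4:**
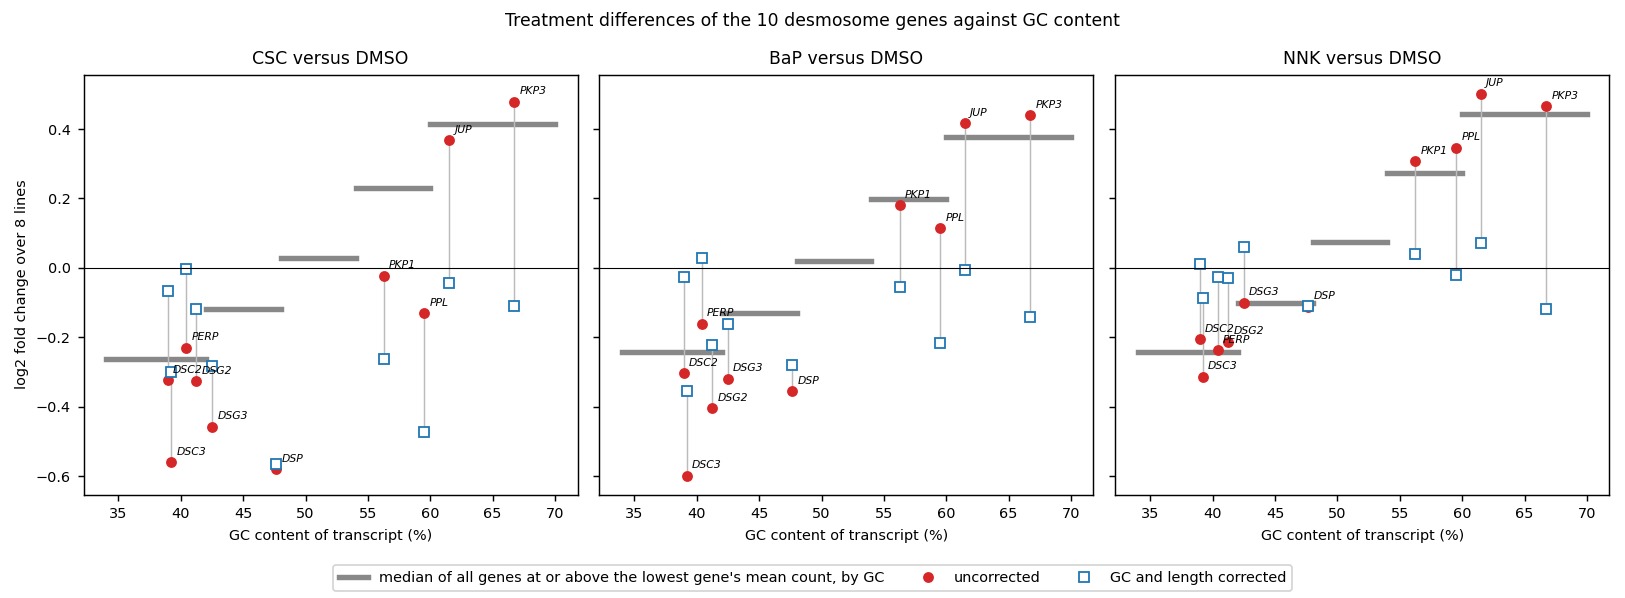
Log2 fold change of the 10 genes under CSC, BaP and NNK against DMSO (over 8 lines) plotted against the GC content of their transcripts, before (filled circles) and after (open squares) correction for GC content and length; grey bars are medians of all well-counted genes by GC content. The uncorrected values, like the grey bars, tend to rise from low to high GC content. Under CSC, DSP (-0.58) and DSG3 (-0.46) lie well below their bar (-0.12) and PPL (-0.13) below its own (0.23). PKP3 (0.48) lies near its bar (0.41). After correction DSP under CSC remains at -0.57 while PKP3 drops from 0.48 to -0.11.

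The genes did not all share 1 pattern over the 32 combination means. DSC2 and DSC3 went together most closely (Pearson r = 0.93), followed by DSP with DSC3 (0.92) and DSG3 with DSC3 (0.91). PKP3 with PERP was the lowest pair at -0.29. These are descriptions over combinations that share lines, treatments and the GC trend. The mean standardized pattern of the 10 genes was most like that of ERBB3 (r = 0.91), a receptor for NRG1, and those of PRRG4, ATP8B1 and ABLIM1 were also among the 5 most like it of 10052 genes, with ABLIM1 at 0.88.

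Other desmosome genes were sparse or separate. DSG1, DSG4, DSC1 and CDSN, which belong to differentiating epidermis and hair, were at 0 in 62, 91, 59 and 54 of the 95 samples and never above 5 counts. PKP2, PKP4 and EVPL were present at medians of 108, 132 and 124 CPM, and KAZN at 5.90. PKP2, the plakophilin of simple epithelia and heart, was higher by 0.37 ± 0.08 in CDKN2A over all treatments, where PKP1 was lower by 0.77, and higher by 0.78 ± 0.07 in FAT1, and EVPL (envoplakin, the partner of periplakin) was higher in FAT1 by 0.57 ± 0.07, beside PPL. GFP, the control of both lines, was itself lower than HcRed in PKP2 and EVPL over all treatments. Of these 8 genes outside the 10, 4 were tested in CDKN2A, of which 2 were higher and none lower. Over all genes 29.4% were higher there. In FAT1 4 were tested, of which 3 were higher and 1 lower, where 25.0% and 23.9% of all genes were called so. Between the control lines 6 were tested, of which 4 were lower in GFP and none higher, where 22.8% of all genes were lower. In NRG1 and PIK3CA 6 were tested, of which 4 and 2 were lower and none higher, where 4.91% and 13.8% of all genes were lower. DSG1 was among them at counts near 0.

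Adherens junction genes serve the classic cadherins. Over all treatments, 28.3% of all genes were lower in CDKN2A, 13.8% in PIK3CA and 4.91% in NRG1, and 29.4%, 14% and 5.86% were higher. Among well-counted genes, 43.2%, 20.4% and 8.79% were lower and 32.8%, 26% and 11.6% higher, and the counts of the following lists stand beside these shares. Of the adherens junction genes, 4 of 7 tested were lower and 2 higher in CDKN2A (median -0.23), 2 lower and 1 higher in PIK3CA (median -0.00) and 2 lower and 1 higher in NRG1 (median -0.12). E-cadherin (CDH1) fell by 0.58 (SE 0.04) in CDKN2A, by 0.30 in PIK3CA and by 0.19 in NRG1. CTNND1 of this list had a median of 8 counts and shares its locus with a read-through gene, so its level is uncertain. Of 12 tight and gap junction genes, 6 were lower and 1 higher in CDKN2A, 7 and 1 in PIK3CA, and 4 and 0 in NRG1, so the share in CDKN2A is near that of well-counted genes. CLDN1 fell by 0.64 in PIK3CA, and the gap junction gene GJA1 rose by 1.24 in CDKN2A.

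Of 12 transcription regulators of epithelial state, 7 were lower and 2 higher in CDKN2A over all treatments, 10 and 1 in PIK3CA, and 7 and 3 in NRG1, where 28.3%, 13.8% and 4.91% of all genes were lower. Their medians were -0.28, -0.47 and -0.21, where the medians over all genes tested lay between -0.01 and 0.00. GRHL3 of the grainyhead family fell by 1.28 in PIK3CA and fell by 1.67 in NRG1, at a median of 7 counts, and GRHL2 fell by 0.44 in NRG1. SNAI2, a repressor that binds E-boxes, was lower by 0.53 in PIK3CA and by 1.14 in NRF2 but higher by 0.46 in CDKN2A. In NRG1, where it was named after its value was seen, it was higher by 0.34.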

How the data were processed

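AALE cells were profiled by SFL, a pooled, barcoded, rRNA-depleted full-length RNA-seq. The authors trimmed reads with Cutadapt 1.12, checked them with FastQC 0.11.5, aligned them to hg19 with STAR 2.5.2b and deposited raw counts per gene from featureCounts with RefSeq genes. No molecular identifiers are described, so counts are reads. Samples were grouped by GEO's labels. Counts were scaled by TMM and tested by limma-voom (limma 3.58.1, edgeR 4.0.16, R 4.3.3) over genes with a mean count above 1, two-sided, with Benjamini-Hochberg adjustment over all genes and a threshold of 0.05. Errors after ± are SE for fold changes and SD for levels, and log2 CPM has a prior count of 2. The 95% intervals were taken from the SE by the normal distribution. Fits were tested on simulated data. GC content, length and positions came from GENCODE on GRCh37 for 86.9% of symbols, and the correction was a loess fit per sample (span 0.3). As alternatives, DESeq2 1.42.0, DESeq2's size factors, the quasi-likelihood test of edgeR, other filters, a replicate block and leaving out each replicate were tried. The 10 genes and all lists were chosen with earlier results of these data known. From the other lists, up to 3 genes with the smallest adjusted p were named per comparison, and the 5 genes most like the 10 by correlation. A few genes that this rule names are not reported here.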

Additional observations from a re-analysis of the deposited data

How the results depend on the processing

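Of the 190 gene by comparison results, 186 were called or not called as before with edgeR, 182 with DESeq2 and 189 with DESeq2's size factors. With a stricter filter (mean count from 10 up) 186 were unchanged, and 188 without any. A change of direction was counted only where the gene was called in either fit, and the interaction tests have no direction. Replicate numbers did not pair the samples, as same-numbered samples had mean correlations between -0.0099 and 0.0435. With the replicate block the number of desmosome genes called stayed within 1.5 times the main count in all 19 comparisons, with 8 in CDKN2A in DMSO, and 186 calls were unchanged. DSG3 in FAT1 and NRF2 and PPL in PIK3CA, all in DMSO, were gained and DSC3 in FGFR1 over all treatments was lost. The correction for GC content and length changed most. BaP then had 6 genes called and NNK 2, with and without the block. It turned the direction of PKP3 (-0.11 and with the block -0.11) and JUP (-0.044, -0.045) under CSC, of PKP1 (-0.056, -0.057), PKP3 (-0.14, -0.14), JUP (-0.0067, -0.0032), PERP (0.029, 0.025) and PPL (-0.22, -0.22) under BaP, and of DSG3 (0.059, 0.058), DSC2 (0.012, 0.013), PKP3 (-0.12, -0.12) and PPL (-0.021, -0.020) under NNK. It also turned JUP in FAT1 in DMSO (-0.19, -0.20), DSG2 (0.089, 0.090), PKP3 (-0.28, -0.28) and JUP (-0.19, -0.19) in FAT1 over all treatments, and PKP3 between the control lines (0.050, 0.049). The cause was not tested.

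In DMSO, NRF2 had 1 gene called with DESeq2 and 2 to 5 when 1 replicate was left out. FGFR1 had 0 with edgeR and DESeq2, 2 without a filter, 2 with the GC correction with or without the block, and 0 to 2 when 1 replicate was left out, with 0 without FGFR1 replicate 3 and 2 without HcRed replicate 2. Over all treatments FGFR1 had 3 to 5 when 1 replicate number was left out. Apart from these and from BaP and NNK with the GC correction, the counts stayed within 1.5 times the main count.

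Over all genes, calls under CSC went from 8061 to 4496 with the GC correction (4448 with the block), under BaP from 7402 to 3210 (3207) and under NNK from 7438 to 2040 (2026), or 11531 without a filter. DESeq2 moved the DMSO counts from 3752 to 1983 for FAT1, 5408 to 3402 for CDKN2A, 1005 to 307 for NRF2, 265 to 83 for FGFR1 (446 with the GC correction and block), 287 to 72 for NRG1 and 1228 to 460 for PIK3CA. It moved the interactions from 138 to 60 for CSC (71 without a filter, 91 with the GC correction), 53 to 26 for BaP (30 without a filter) and 65 to 16 for NNK (29 without a filter, 34 with edgeR). When 1 replicate was left out, the DMSO counts lay between 567 and 1029 for NRF2, 119 and 274 for FGFR1 and 166 and 274 for NRG1. The counts over all treatments then lay between 2008 and 2255 for NRF2 (3081 with all), 1034 and 1294 for FGFR1 (1934) and 720 and 1105 for NRG1 (1530), and those of the interactions between 54 and 75, 26 and 42, and 28 and 124. Depth limits DSC2 and PKP3, the least counted of the 10 genes.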
